A study of Papio anubis with 12 samples.

Results

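The tissue inhibitors of metalloproteinases, TIMP1 to TIMP4, and the membrane-anchored inhibitor RECK were examined in the precentral gyrus of 12 baboon neonates (Papio anubis) fed formulas with and without long chain polyunsaturated fatty acids. The members were taken as the probe sets whose platform annotation gives exactly 1 gene symbol equal to TIMP1, TIMP2, TIMP3, TIMP4 or RECK. There are 14 of them among the 54613 probe sets tested, with 1 for TIMP1, 3 for TIMP2, 4 for TIMP3, 1 for TIMP4 and 5 for RECK. All 14 were tested without a filter on low values, and 9 of them had a mean above the median of all probe sets. The other 5 are the TIMP4 probe set and the RECK probe sets 205407_at, 216156_at, 1558115_at and 1558116_x_at.

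Neonates were fed for 12 weeks on formula C, which held neither docosahexaenoic acid (DHA) nor arachidonic acid (ARA), on formula L with 0.33% DHA and 0.67% ARA, or on formula L3 with 1.00% DHA and 0.67% ARA. Each formula was given to 4 animals and 1 array was hybridized per animal. Group C held 2 males and 2 females, group L held 1 male and 3 females, and group L3 held 4 females. The animals were 83 to 87 days old, and C replicate 2 is labelled as brain tissue with no mention of the precentral gyrus. Values are MAS5 signals, a linear intensity that Affymetrix software computes for each probe set from its perfect-match and mismatch probes. The probes of the HG-U133 Plus 2.0 array were designed on human transcripts. L/C and L3/C share the C arrays, and a positive log2 difference means a higher value with formula L or L3 than with formula C.

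TIMPs are small secreted proteins that block the active site of matrix metalloproteinases (MMPs), the enzymes that cut collagens, laminins and other parts of the extracellular matrix. TIMP3 differs from the other TIMPs in that it stays bound to the matrix and also inhibits several ADAM and ADAMTS proteases, among them ADAM17. RECK sits on the cell surface through a lipid anchor, inhibits MMPs and takes part in WNT7 signalling during growth of brain vessels. In brain, the balance of these inhibitors and proteases is known for its part in vessel growth, the blood-brain barrier and remodelling around synapses. In the baboon gene table TIMP1, TIMP3 and TIMP4 lie within the spans of SYN1, SYN3 and SYN2, the genes of the synapsins that coat synaptic vesicles (TIMP1 also within that of ZNF41), and no such host was found for TIMP2 or RECK.

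Some facts of the whole series touch several results. The log2 ratio of the 3' to the 5' control probe set of ACTB, a measure of RNA integrity in which a higher ratio means fewer full-length copies, spanned -0.03 to 3.57 in C, -0.15 to 3.42 in L and 0.17 to 5.98 in L3. In each formula replicate 1 had the highest ratio and replicate 4 the lowest, and L replicate 3 was also near 0, at 0.10. The mean log2 signal of 18 spiked bacterial control probe sets was 11.14 to 12.71 in C, 10.77 to 13.04 in L and 10.83 to 13.72 in L3. RPS4Y1, a Y-linked gene, gave 65.8 to 317 in females and 3132 to 4667 in males, so the labelled sex matched in 12 of 12 animals. The summed signal of 7 neuron markers was 70643 to 91142 in C, 57282 to 93339 in L and 61430 to 84628 in L3. It is a check for brain tissue and not for the labelled region. Over all probe sets the standard error of a log2 difference had a median of 0.51, and the number of arrays limits the precision of every value below.

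TIMP3 was selected on these arrays, because its probe set 201148_s_at stands in a list that the study made from L/C and L3/C. Its differences between formulas are therefore given as a description with no test. Probe set 201148_s_at read 138, 305, 537 and 656 in the 4 C arrays, 740, 723, 849 and 984 in the 4 L arrays, and 254, 759, 366 and 886 in the 4 L3 arrays. All 4 L arrays lay above all 4 C arrays, while the L3 arrays overlapped both groups. The mean was 409 ± 232 with formula C, 824 ± 120.1 with formula L and 566 ± 304 with formula L3 (SD, n = 4 each), so the order was L, L3, C, and L3 overlapped with either neighbour. The log2 difference was 1.23 for L/C (SE 0.47, a fold of 2.34) and 0.50 for L3/C (SE 0.47, a fold of 1.42). In bulk tissue, fewer cells of a type and less RNA per cell cannot be told apart.

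**Figure D1:**
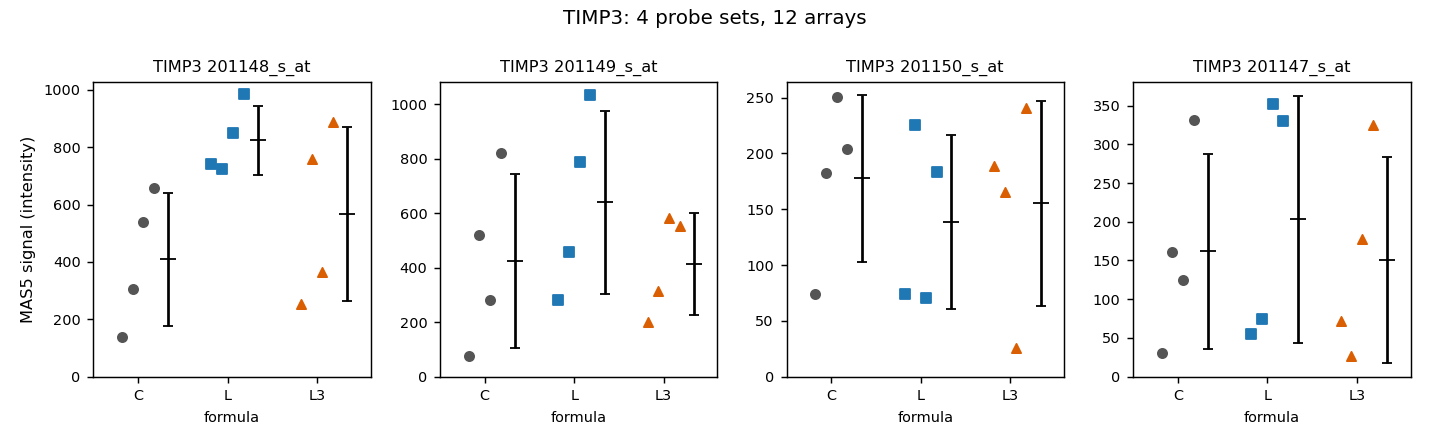
MAS5 signal of the 4 TIMP3 probe sets in the 12 arrays by formula, with 1 point per animal in order of replicate number, and a bar beside each group for the mean ± SD of 4 arrays. For 201148_s_at the L arrays sit between 723 and 984, all above the C arrays, and the groups overlap in the other 3 panels.

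The other 3 TIMP3 probe sets did not show this separation. Probe set 201149_s_at read 76.5, 519, 281 and 821 in C, 281, 458, 788 and 1032 in L, and 199, 314, 583 and 554 in L3. The groups overlapped, with the highest C array above 3 of the 4 L arrays and above all L3 arrays. Its log2 difference was 0.71 for L/C and 0.18 for L3/C, both with an SE of 0.61. Probe set 201147_s_at read 30.1, 162, 124 and 332 in C, 55.6, 74.3, 352 and 330.0 in L, and 71.3, 27.1, 178 and 325 in L3. Within each formula its lowest and highest arrays lay farther apart than the means of the formulas did. Its log2 difference was 0.27 for L/C and -0.29 for L3/C, both with an SE of 0.79.

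Probe set 201150_s_at went the other way in both comparisons. It read 73.8, 183, 250.3 and 204 in C, 74.5, 225, 70.8 and 184 in L, and 189, 165, 25.6 and 241 in L3. Its log2 difference was -0.32 for L/C and -0.43 for L3/C, both with an SE of 0.65, and the groups overlapped. Thus 3 of the 4 TIMP3 probe sets were higher for L/C and 2 of 4 for L3/C. With age as a covariate only 201148_s_at stayed above 0 for L/C, at 1.10. In L3/C only 201148_s_at stayed above 0 with sex as a covariate (0.33), in females alone (0.32) and without the 3 arrays of highest ACTB ratio (0.42). With age, the ACTB ratio or the spike-in mean as a covariate, 3 of 4 were higher for L3/C, since 201147_s_at was then at 0.21, 0.10 and 0.38.

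The 4 TIMP3 probe sets were then compared over the 12 arrays. Probe sets 201147_s_at and 201149_s_at varied together, with Pearson r = 0.84 (permutation p = 0.00033, adjusted p = 0.019 over 57 relations) and Spearman rho = 0.87 (permutation p = 0.00037, adjusted p = 0.0091). Without the 2 arrays farthest from the median, r was 0.85. The ACTB ratios of the arrays fall apart into 4 near 0, too few for an r of their own, and 8 from 1.33 to 5.98. Within those 8 arrays the r of this pair was 0.73 and rho was 0.69 (exact permutation, adjusted p = 0.63 for r), and 0 of 57 relations were called there, with 4 at an unadjusted p under 0.05. Probe set 201148_s_at, in which L stood apart, had r = 0.63 with 201149_s_at (permutation p = 0.028, adjusted p = 0.16) and rho = 0.43 (permutation p = 0.17, adjusted p = 0.40), and r was -0.09 without the 2 farthest arrays, so that relation rested on those arrays. Its r was 0.43 with 201147_s_at and 0.31 with 201150_s_at, with adjusted p of 0.38 and 0.54. Of 29 pairs within a gene or between the brightest probe sets of the members, 1 was called at an adjusted permutation p under 0.05.

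Signals of 2 TIMP3 probe sets also ran opposite to the ACTB 3'/5' ratio over the 12 arrays. For 201149_s_at r was -0.81 (permutation p = 0.0021, adjusted p = 0.025) and rho was -0.94 (adjusted permutation p = 0.0017), and r was -0.81 without the 2 farthest arrays. For 201147_s_at r was -0.80 (permutation p = 0.0013, adjusted p = 0.020) and rho was -0.87 (adjusted permutation p = 0.0091), and r was -0.91 without the 2 farthest arrays. The arrays with ratios near 0, which are C replicate 4, L replicates 3 and 4 and L3 replicate 4, had the 4 highest signals of 201147_s_at, 325 to 352. Within the other 8 arrays r with the ratio was -0.64 for 201149_s_at (rho = -0.86) and -0.46 for 201147_s_at (rho = -0.62), with adjusted exact permutation p of 0.64 and 0.78 for r, so the relations did not hold as calls without those 4 arrays. For 201148_s_at r was -0.63 (permutation p = 0.029, adjusted p = 0.16) and rho was -0.52, and for 201150_s_at r was -0.25 (permutation p = 0.43, adjusted p = 0.65). With the ratio as a covariate the L/C difference was 1.02 for 201148_s_at, 0.37 for 201149_s_at, -0.15 for 201147_s_at and -0.42 for 201150_s_at. Without the 3 arrays of highest ratio, replicate 1 of each formula, the L/C difference of 201148_s_at was 0.78, and leaving out C replicate 1 alone gave 0.81 for L/C and 0.08 for L3/C.

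**Figure D2:**
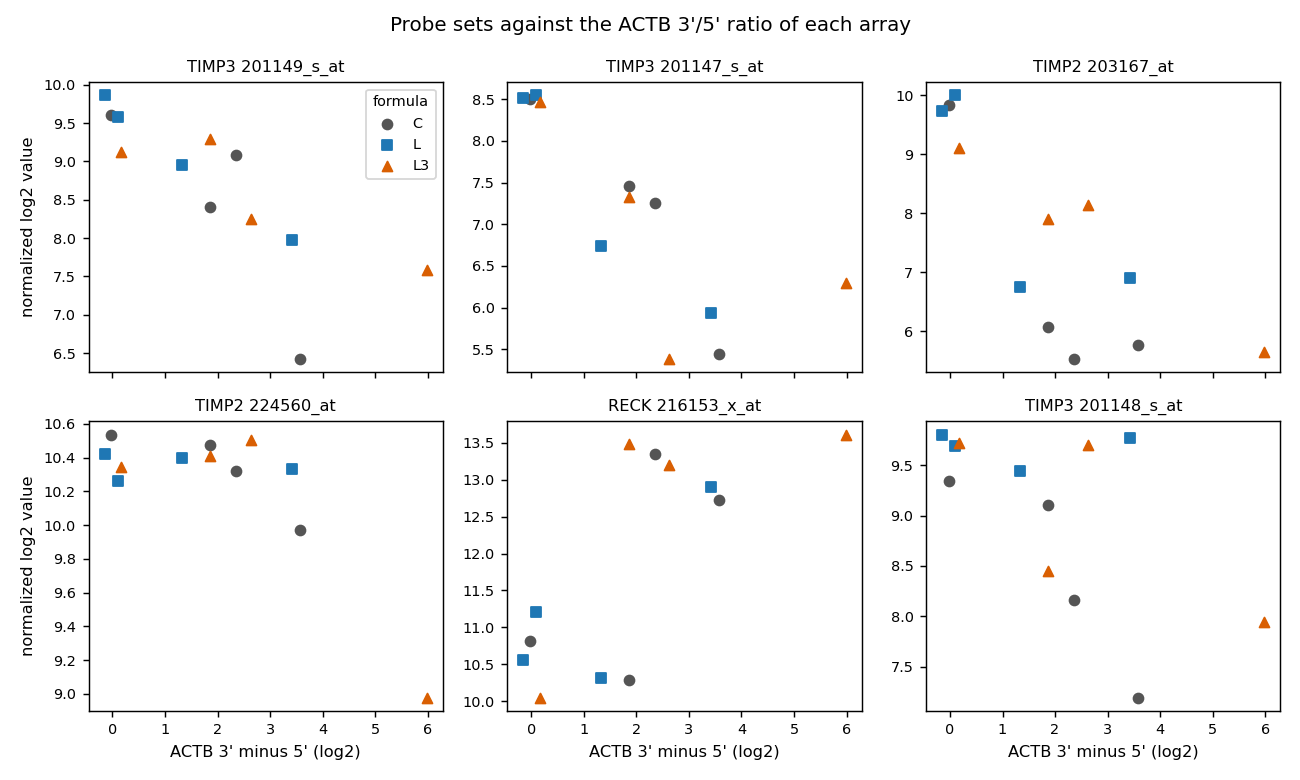
Quantile-normalized log2 value of 6 member probe sets (vertical axis) against the log2 ratio of the 3' to the 5' ACTB control probe set (horizontal axis), 1 point per array, with formulas C, L and L3 marked by symbol. TIMP3 201149_s_at, TIMP3 201147_s_at and TIMP2 203167_at run downward with the ratio, TIMP3 201148_s_at less so, TIMP2 224560_at is low in the array at 5.98, and RECK 216153_x_at runs upward.

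TIMP1, TIMP2, TIMP4 and RECK were tested, as they were not chosen by a difference of their own. None of their 10 probe sets passed an adjusted limma p of 0.05 for L/C or for L3/C, and 0 of 10 had an unadjusted p under 0.05 in either comparison. Over 25 alternatives of processing or of samples, 1 of 10 had an unadjusted p under 0.05 in 3 for L/C and in 4 for L3/C, most often TIMP2 203167_at. Over all probe sets 0% were called for L/C and 0% for L3/C, and 2.42% and 4.26% had an unadjusted p under 0.05. Exact permutation tests of 4 against 4 arrays, whose smallest possible two-sided p is 0.0286, called 0 of 10 as well. Of all 14 probe sets, TIMP3 included, 10 were higher for L/C against 49.1% of all probe sets, and 7 were higher for L3/C against 49.9%. Of the 10 without TIMP3, 7 were higher for L/C and 5 for L3/C. The 4 L arrays did not overlap the 4 C arrays for 1 of 14, the TIMP3 probe set that chose the gene, against 2.10% of all probe sets. For L3 against C this held for 0 of 14, against 2.21%. Over the 14, which include TIMP3, a gene selected on these comparisons, log2 differences had a median of 0.11 for L/C and of 0.05 for L3/C. Over all probe sets the medians were -0.0089 and -0.00072.

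**Figure D3:**
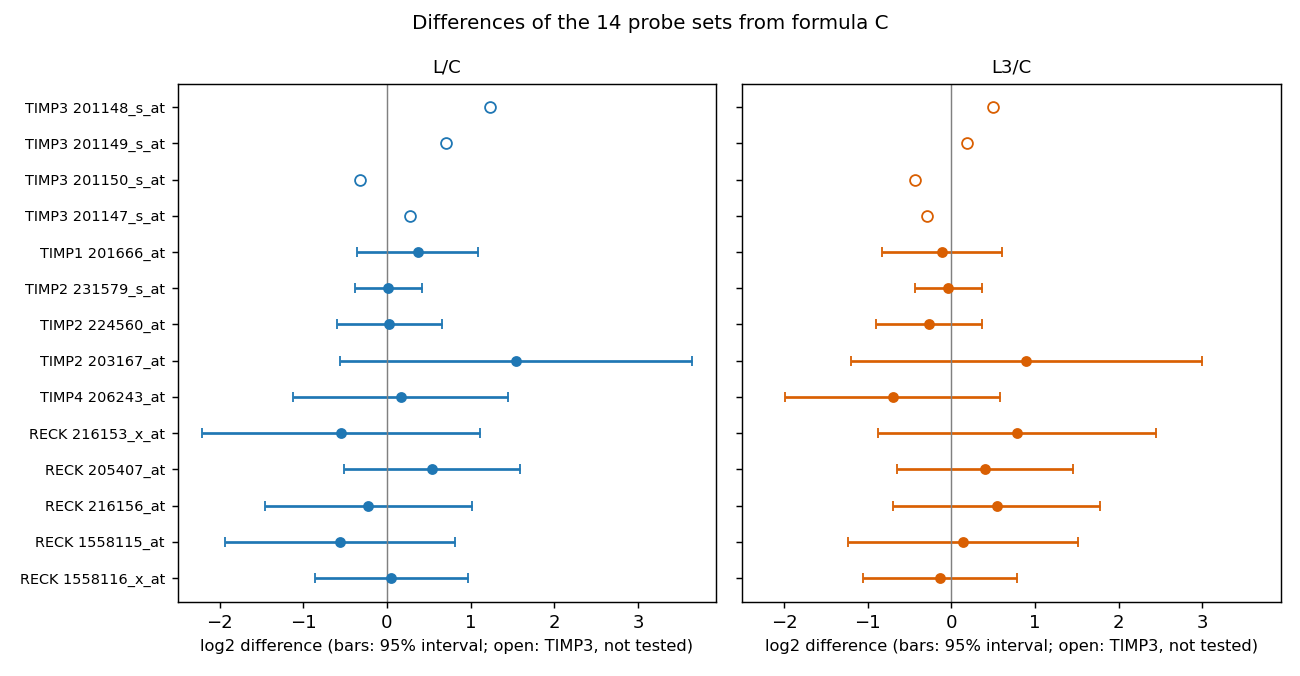
Log2 difference of each of the 14 probe sets for L/C (left) and L3/C (right), as open points with no interval for the 4 of TIMP3, which were not tested, and with the 95% interval from the limma fit for the other 10. The intervals of those 10 include 0 in both panels.

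TIMP1 is the inducible member of the family, known for binding the zymogen of MMP9 and the tetraspanin CD63. Its probe set 201666_at read 438, 339, 354 and 299 in C, 432, 424, 401 and 697 in L, and 222, 519, 309 and 403 in L3. All 4 L arrays lay above the mean of C, but C replicate 1 was higher than every L array except replicate 4. TIMP1 averaged 488 ± 139.9 in L and 357 ± 58.7 in C (SD, n = 4 each), a log2 difference of 0.37 (95% interval -0.35 to 1.08, exact permutation p = 0.11, limma adjusted p = 1.00). In L3/C the difference was -0.11 (interval -0.83 to 0.60, exact permutation p = 0.77). Its r with the brightest TIMP3 probe set was 0.54 over the 12 arrays and 0.32 without the 2 farthest (adjusted permutation p = 0.26).

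TIMP2, besides inhibiting MMPs, takes part in the activation of MMP2 at the cell surface together with MMP14. Its probe set 231579_s_at read 3829, 2414, 5549 and 4531 in C, 1839, 6325, 4020.1 and 5244 in L, and 3453, 3753, 2423 and 3228 in L3. The groups overlapped throughout, and after normalization this probe set had the narrowest interval of the family. Its log2 difference was 0.02 for L/C (interval -0.39 to 0.42) and -0.04 for L3/C (interval -0.44 to 0.37), with exact permutation p of 0.89 in both. Probe set 224560_at read 952, 1047, 1821 and 1676 in C, 974, 1676, 1296 and 1595 in L, and 492, 1299, 1116 and 1411 in L3. Apart from the low array of L3, which also had the highest ACTB ratio, the formulas overlapped. Its log2 difference was 0.03 for L/C (interval -0.60 to 0.66) and -0.27 for L3/C (interval -0.90 to 0.36).

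The third TIMP2 probe set, 203167_at, had the widest interval of all members. It read 42.8, 39.4, 40.4 and 980.2 in C, 124, 75.0, 1063 and 927 in L, and 40.5, 292, 264 and 549 in L3. In C and in L the signals fell into low and high arrays, and the high arrays are those with an ACTB ratio near 0. In L3 the signals spread from 40.5 to 549. TIMP2 by this probe set averaged 547 ± 520.3 in L and 276 ± 470 in C (SD, n = 4 each), a log2 difference of 1.54 (interval -0.56 to 3.64, exact permutation p = 0.20, limma adjusted p = 1.00). The L/C difference was 2.55 without C replicate 4 and 3.07 in females only (limma adjusted p = 1.00 in both), against 0.94 with the ACTB ratio and 0.68 with age as a covariate. Its unadjusted limma p was under 0.05 without C replicate 4, in females only and with the replicate number as a block. In L3/C the difference was 0.90 (interval -1.20 to 3.00, exact permutation p = 0.46), 1.91 without C replicate 4 and 1.47 with the ratio as a covariate, the last 2 at an unadjusted limma p under 0.05.

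Over the 12 arrays, 203167_at had r = -0.79 with the ACTB ratio (permutation p = 0.0014, adjusted p = 0.020) and rho = -0.78 (permutation p = 0.0045, adjusted p = 0.051), and r was -0.78 without the 2 farthest arrays. Within the 8 arrays of higher ratio its r was -0.40 (adjusted exact permutation p = 0.82). The r of 224560_at with the ratio was -0.76 (permutation p = 0.0084, adjusted p = 0.061), rho was -0.51 (adjusted permutation p = 0.29), and r was -0.41 without the 2 farthest arrays, so this relation was weaker without them. Within the 8 arrays of higher ratio, which include the array at 5.98, its r was -0.92 and rho was -0.62 (adjusted exact permutation p = 0.25 for r). The r of 231579_s_at with the ratio was 0.09 (adjusted permutation p = 0.83). Among themselves the 3 TIMP2 probe sets had r from -0.26 to 0.46, with adjusted permutation p from 0.27 to 0.96.

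TIMP4 is the member with the most restricted expression, known mainly from heart and brain. Its probe set 206243_at read 147, 12.4, 71.6 and 67.7 in C, 85.8, 85.2, 23.1 and 98.0 in L, and 63.2, 20.1, 13.3 and 58.4 in L3. All 4 L3 arrays lay below the mean of C, but C replicate 2 was lower than all of them. TIMP4 averaged 38.8 ± 25.7 in L3 and 74.8 ± 55.4 in C (SD, n = 4 each), a log2 difference of -0.70 (interval -1.98 to 0.59, exact permutation p = 0.31, limma adjusted p = 0.999). Without C replicate 2 the difference was -1.25 (limma adjusted p = 0.945). In L/C it was 0.16 (interval -1.12 to 1.45, exact permutation p = 0.80), and -0.39 without C replicate 2.

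**Figure D4:**
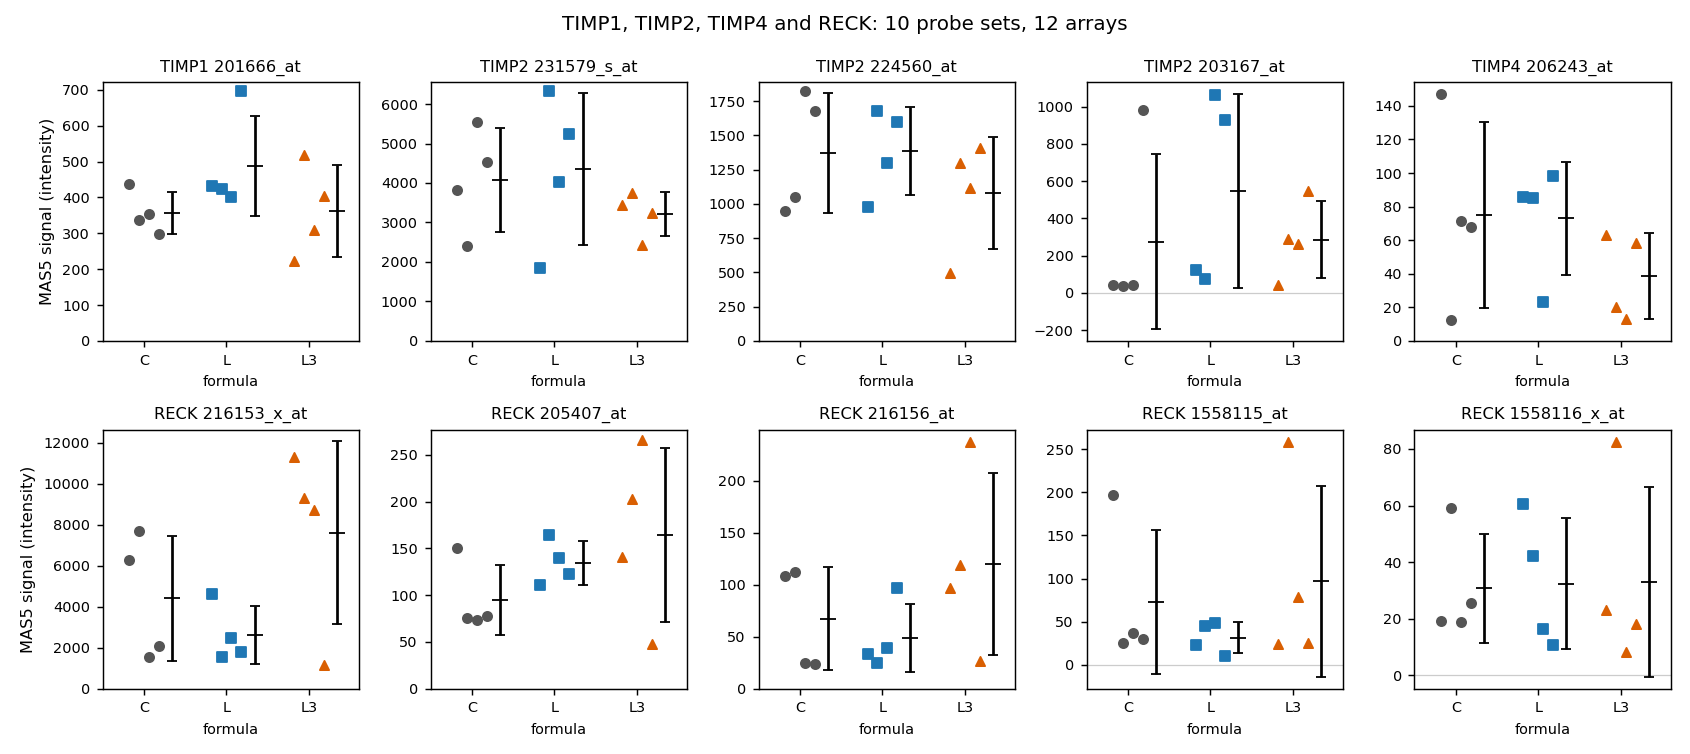
MAS5 signal of the 10 probe sets of TIMP1, TIMP2, TIMP4 and RECK in the 12 arrays by formula, with 1 point per animal in order of replicate number, and a bar beside each group for the mean ± SD of 4 arrays, which reaches below 0 where 1 array stands far above the others. The formulas overlap in all 10 panels.

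RECK was represented by 5 probe sets that differed from each other in direction. Probe set 205407_at read 151, 75.9, 73.4 and 78.0 in C, 111, 164, 139 and 123 in L, and 140.4, 202, 266 and 47.8 in L3. The L arrays all exceeded the 3 lower C arrays, and C replicate 1 lay among them. RECK by this probe set averaged 134 ± 23.0 in L and 94.5 ± 37.5 in C (SD, n = 4 each), a log2 difference of 0.54 (interval -0.51 to 1.59, exact permutation p = 0.086, limma adjusted p = 1.00). In L3/C the difference was 0.40 (interval -0.65 to 1.46, exact permutation p = 0.43).

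Probe set 216153_x_at, an x_at set of the kind whose probes can match other transcripts, read 6286, 7677, 1560 and 2072 in C, 4625, 1567, 2473 and 1794 in L, and 11304, 9293, 8691 and 1135 in L3. In L3, 3 arrays were above every C and L array and 1 was below every other array. It averaged 7606 ± 4456 in L3 and 4399 ± 3043 in C (SD, n = 4 each), a log2 difference of 0.79 (interval -0.87 to 2.45, exact permutation p = 0.51, limma adjusted p = 0.999). Without L3 replicate 4 the difference was 1.63 (limma adjusted p = 0.576), and with the spike-in mean as a covariate it was -0.07. In L/C the difference was -0.55 (interval -2.21 to 1.11, exact permutation p = 0.60). Over the 12 arrays this probe set had r = 0.87 with the spike-in mean (permutation p = 0.0010, adjusted p = 0.020, rho = 0.79) and r = 0.75 with the ACTB ratio (permutation p = 0.0052, adjusted p = 0.049, rho = 0.60), and r was 0.85 and 0.70 without the 2 farthest arrays. Within the 8 arrays of higher ratio r was 0.82 with the spike-in mean and 0.55 with the ratio (adjusted exact permutation p of 0.25 and 0.65).

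The remaining RECK probe sets were dim and had no constant direction. Probe set 216156_at read 23.6 to 112 in C, 24.8 to 96.6 in L and 26.9 to 238 in L3, with log2 differences of -0.22 for L/C and 0.54 for L3/C. Probe set 1558115_at read 25.5 to 197 in C, 10.9 to 48.2 in L and 24.3 to 259 in L3, with log2 differences of -0.57 and 0.14. Probe set 1558116_x_at read 19.0 to 59.1 in C, 10.7 to 60.4 in L and 8.3 to 82.5 in L3, with log2 differences of 0.05 and -0.13. Exact permutation p for these 6 differences ran from 0.49 to 0.86. The 10 pairs of RECK probe sets had r from -0.31 to 0.63 over the 12 arrays, with adjusted permutation p from 0.19 to 0.79.

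Females and males were compared with formula in the fit, over 9 females and 3 males. By limma 0 of the 14 probe sets passed an adjusted p of 0.05 and 0 an unadjusted p of 0.05, against 0.00366% and 1.98% of all probe sets. In 6 of 14 the fitted value was higher in females. TIMP4 averaged 49.5 ± 32.9 in 9 females and 100.1 ± 41.8 in 3 males, a log2 difference of -0.95 (SE 0.63, limma adjusted p = 1.00). The TIMP3 probe set 201148_s_at averaged 631 ± 272 in females and 506 ± 320.4 in males, a log2 difference of 0.35 (SE 0.52, limma adjusted p = 1.00). L3 held 0 males, so the fitted log2 differences rest on the arrays of C and L. The averages of the 9 females include those of L3 and are not adjusted for formula.

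The proteases that these inhibitors act on were looked at with 1 probe set per gene, the brightest. Of 22 matrix metalloproteinases, 14 were higher and 8 lower for L/C, and 10 were higher and 12 lower for L3/C (6 higher with arrays centred on their medians). With that centring the L3/C median of all probe sets was -0.12, and 9 of the 22 lay above it. By limma 0 of the 22 had an adjusted or an unadjusted p under 0.05 in either comparison. The list's median was 0.09 for L/C and -0.09 for L3/C on the log2 scale. The smallest p for L/C belonged to MMP9 (gelatinase B), whose signal averaged 195 ± 69.8 in L and 275 ± 75.1 in C, a log2 difference of -0.51 (SE 0.44), followed by MMP21 (-0.65, SE 0.65) and MMP24 (0.50, SE 0.61). In L3/C it belonged to MMP27 (-0.94, SE 0.48), followed by MMP16 (0.40, SE 0.22) and MMP28 (-0.65, SE 0.50). MMP16 and MMP24 are membrane-type enzymes.

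Of 30 measured ADAM and ADAMTS proteases, 12 were higher and 18 lower for L/C (median -0.16), and 17 were higher and 13 lower for L3/C (median 0.11). Without the 3 arrays of highest ACTB ratio, 16 of the 30 were higher for L/C (median 0.02). By limma 0 of the 30 passed an adjusted or an unadjusted p of 0.05. Those with the smallest p for L/C were ADAMTS15, which cleaves the proteoglycan aggrecan (-0.65, SE 0.35), ADAMTS12 (1.00, SE 0.58) and ADAM12 (-0.65, SE 0.38). In L3/C they were ADAMTS13, the enzyme that cleaves von Willebrand factor (-1.27, SE 0.75), ADAM33 (0.59, SE 0.43) and ADAM12 (-0.50, SE 0.38). The paper names ADAM17, ADAM33, ADAMTS15 and ADAMTS16 among the genes changed on these same arrays. Their direction and rank here are therefore a description and no separate result.

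Of 9 binding partners and receptors of TIMPs, 6 were higher and 3 lower in both comparisons (for L3/C, 4 higher with no further normalization and 3 with arrays centred on their medians), with medians of 0.21 for L/C and 0.04 for L3/C and 0 at an unadjusted limma p under 0.05. With arrays centred, 4 of the 9 lay above the median of all probe sets for L3/C. In L/C the smallest p belonged to EFEMP1, a matrix protein that binds TIMP3 (0.29, SE 0.21), to CD63, a partner of TIMP1 (0.33, SE 0.25), and to the integrin subunit ITGB1 (0.19, SE 0.30). In L3/C they were AGTR2 (0.51, SE 0.50), an angiotensin receptor, LRP1 (-0.25, SE 0.33), which takes up TIMPs from the cell surface, and KDR (0.31, SE 0.49), the VEGF receptor to which TIMP3 binds. CD44, also in this list, is named by the paper among the genes changed on these arrays, so its direction is no separate result.

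Among 18 measured genes of the brain extracellular matrix, 13 were higher and 5 lower for L/C (median 0.11), and 10 were higher and 8 lower for L3/C (median 0.03; 7 higher with arrays centred on their medians). With that centring 8 of the 18 lay above the median of all probe sets for L3/C. In L/C 1 had an unadjusted limma p under 0.05, for L3/C 0 had, and 0 had an adjusted p under 0.05. This was SPARC, a collagen-binding matrix protein, with 1461 ± 331 in L and 861 ± 468 in C, a log2 difference of 1.02 (SE 0.39, limma adjusted p = 1.00). Its unadjusted p stayed under 0.05 in 23 of 25 alternatives and not without C replicate 2, where the value was 0.55, nor with arrays centred on their medians. Several of the 25, such as those without 1 L3 array, leave this difference as it is and change only its spread. SPARC was at 0.65 (SE 0.39) for L3/C, where RELN, the guidance protein reelin (0.39, SE 0.26), and VCAN, the proteoglycan versican (0.39, SE 0.29), followed. In L/C the relative SPARCL1 (0.36, SE 0.24) and the laminin chain LAMC1 (-0.65, SE 0.45) followed.

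A list of other protease inhibitors and related proteins of the matrix had 11 measured genes, among them PCOLCE and PCOLCE2, which are not inhibitors. Of the 11, 6 were higher and 5 lower for L/C (median 0.13), and 4 were higher and 7 lower for L3/C (median -0.02). For L3/C 0 were higher with arrays centred on their medians and 7 without the 3 arrays of highest ACTB ratio. With that centring 3 of the 11 lay above the median of all probe sets. In either comparison 0 of the 11 had an unadjusted limma p under 0.05. SERPINE2, the serpin protease nexin, had the smallest p in both comparisons, at 0.19 (SE 0.21) for L/C and 0.36 (SE 0.21) for L3/C. With arrays centred on their medians its L3/C value was -0.05, above the median of all probe sets there, -0.12. In L/C PZP (-0.30, SE 0.36) and the cathepsin inhibitor CST3 (0.56, SE 0.68) followed, and for L3/C TFPI2 (-0.72, SE 0.55) and SPOCK2 (-0.20, SE 0.30) did.

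The 3 synapsin genes whose spans hold TIMP1, TIMP3 and TIMP4 had lower values in both comparisons, except that SYN3 for L3/C was above 0 with no further normalization (0.06), with age as a covariate (0.01), without the 3 arrays of highest ACTB ratio (0.11) and with some single arrays left out (up to 0.17). SYN1 averaged 2405 ± 826 in L3 and 3730.0 ± 952 in C, a log2 difference of -0.43 (SE 0.18, limma adjusted p = 0.999), and it was at -0.29 (SE 0.18) for L/C. SYN1 was the 1 member of this list with an unadjusted limma p under 0.05, for L3/C, and it kept that mark in 17 of 25 alternatives. Several of the 25, such as those without 1 L array, leave its L3/C difference as it is and change only the spread. SYN3, the host of TIMP3, averaged 83.2 ± 48.5 in L and 181 ± 87.3 in C, a log2 difference of -1.05 (SE 0.50, limma adjusted p = 1.00). The TIMP3 probe sets were at 1.23 (201148_s_at, which chose the gene), 0.71, 0.27 and -0.32 for L/C. In L3/C SYN3 was at -0.08 (SE 0.50). SYN2, the host of TIMP4, was at -0.15 for L/C and -0.27 for L3/C, both with an SE of 0.17.

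Markers of the cells of the tissue were summed beside these values, and 0 had an adjusted limma p under 0.05. Of 6 markers of meningeal fibroblasts, 6 were higher in both comparisons, with medians of 0.53 for L/C and 0.93 for L3/C, and their summed signal ranged over 2069 to 6892 in C, 3186 to 11248 in L and 3495 to 15843 in L3. Of these, OGN for L/C and both DCN and OGN for L3/C had an unadjusted limma p under 0.05. The paper names LUM and OGN among the genes raised on these same arrays, so their direction here is no separate result. Of 7 microglia markers, 7 were higher for L/C (6 with no further normalization), with a median of 0.43, and 1 had an unadjusted limma p under 0.05. Their summed signal was 1989 to 6007 in L and 1599 to 3933 in C, and 3 of 7 were higher for L3/C (4 without the 3 arrays of highest ACTB ratio). One of the 7, C1QC, was at 0.01 for L/C and -0.06 for L3/C. The paper names it, as C1QG, among genes lowered with more DHA on these arrays, so its direction is no separate result. Mural cell markers, which label pericytes and smooth muscle, were lower in 5 of 5 for L/C (median -0.10; 4 with arrays centred). Without the 3 arrays of highest ACTB ratio 2 of these 5 were higher for L/C. For L3/C 4 of 5 mural cell markers were higher (median 0.26). Endothelial markers were higher in 4 of 6 for L/C (3 with no further normalization) and in 3 of 6 for L3/C. Of 4 choroid plexus markers, 2 were higher for L/C (median -0.44) and 4 for L3/C (median 0.76; 3 with arrays centred or without the 3 arrays of highest ratio), with summed signals of 953 to 1713 in C, 814 to 1293 in L and 981 to 3060.4 in L3. Of 5 oligodendrocyte markers, 3 were higher for L/C (median 0.01; 5 without the 3 arrays of highest ratio) and 0 for L3/C (median -0.25; 1 without those arrays). Of 4 markers of their precursors, 4 were higher for L/C (median 0.28; 3 with no further normalization). For L3/C 3 of these 4 were higher (median 0.17; 2 with no further normalization and 1 with arrays centred). Astrocyte markers were higher in 4 of 6 for L/C and in 5 of 6 for L3/C (2 with arrays centred), neuron markers in 3 of 7 in both (0 for L3/C with arrays centred), and red cell markers in 0 of 3 for L/C and 2 of 3 for L3/C. With arrays centred, 5 astrocyte, 4 choroid plexus, 1 precursor and 0 neuron markers lay above the median of all probe sets for L3/C. Of all these lists, 1 astrocyte and 1 red cell marker also had an unadjusted p under 0.05, both for L3/C. The part of these cells in the TIMP values was not tested.

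The genes most like each member over the 12 arrays were found by Pearson r among 22065 to 22069 probe sets of other genes with a mean above the median of all probe sets. For TIMP3 201148_s_at they were SLC12A4 (r = 0.93), SPRYD7 (0.92), AGBL5 (0.91), CD46 (0.90) and SSTR2 (0.90). For TIMP1 they were RPAP3 (0.89), MEX3C (0.87) and CD248 (0.87), for TIMP2 231579_s_at C9orf40 (0.94), LARS1 (0.91) and EPB41L3 (0.90), and for TIMP4 RASD1 (0.95), BOD1 (0.93) and CYMP-AS1 (0.93). For RECK 216153_x_at the 3 were DNAH3 (0.99), SLC35D4 (0.98) and COLCA1 (0.97), all by x_at probe sets, as is the RECK probe set itself. These r are the highest over all probe sets compared, over arrays that share formula, sex and RNA quality, and they are a description with no p.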

How the data were processed

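RNA of each of 12 animals was measured on 1 Affymetrix HG-U133 Plus 2.0 array. The authors deposited the MAS5 signal of 54675 probe sets per array, an intensity on a linear scale, scaled to a common trimmed mean. The methods describe RMA values, which these are not. Detection calls and probe-level data were not used here.

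Signals of all but 62 control probe sets, plus a pseudocount of 16, were taken to log2 and quantile normalized. Limma 3.58.1 in R 4.3.3 fitted 3 group means to all 12 arrays (9 residual degrees of freedom, variance trend), with Benjamini-Hochberg adjustment over 54613 probe sets and a threshold of 0.05. Differences are thus on the log2(signal + 16) scale, which understates changes of dim probe sets. Sex was fitted beside formula. Single values were also tested by exact two-sided permutation, and correlations by 100000 permutations, adjusted over 57 relations (Python 3.11.15), and exactly within the 8 arrays of higher ACTB ratio, an alternative chosen after seeing the data. The fit was tested on simulated data. By the platform annotation 41091 probe sets have 1 symbol, 1801 several and 11721 none.

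The named genes are all member probe sets, up to 3 genes with the smallest p per list and comparison, and the probe sets most like the brightest of each member (5 for TIMP3, 3 for the others). Marker lists of 10 cell types were also summed. Members and lists were chosen with earlier results of these data known.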

Additional observations from a re-analysis of the deposited data

Results flagged for a closer look

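In 3 of 42 groups of 4 arrays, 1 array stood far from the other 3 by the gap it leaves on the quantile-normalized log2 scale. Chance alone gives such a gap in about 1 in 20 groups. The values below are MAS5 signals, to which the rule was not applied. TIMP2 203167_at read 980.2 in C replicate 4, against 39.4 to 42.8 in the other C arrays. RECK 216153_x_at read 1135.3 in L3 replicate 4, against 8690.8 to 11303.9 in the other L3 arrays. TIMP2 224560_at read 492.3 in L3 replicate 1, against 1115.9 to 1410.6 in the other L3 arrays. C replicate 4 and L3 replicate 4 had the lowest ACTB 3'/5' log2 ratio of their groups (-0.03 and 0.17), and L3 replicate 1 had the highest of all arrays (5.98). The part of the ratio in these 3 values was not tested.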

How the results depend on the processing

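None of the 10 tested probe sets of TIMP1, TIMP2, TIMP4 and RECK was called at an adjusted p under 0.05 by limma under any alternative run, and the smallest adjusted p was 0.576. The labels give replicate numbers without saying what same-numbered animals share. Same-numbered arrays had correlations of their deviations from -0.09 to 0.33 over 12 pairs, and 6 of 12 arrays correlated best with their own number. The ACTB ratio ranked in the order of the numbers in each formula. Whether the numbers pair the arrays cannot be told from these values, and the main fit used no block. The replicate block changed no adjusted call (0 of 10 in either comparison) and brought the unadjusted p of TIMP2 203167_at in L/C under 0.05. Over all probe sets, 0 were called in every setting, while the count at an unadjusted p in L3/C was 2329, against 4314 without L3 replicate 4. Among the brighter probe sets, those with a mean above the median of all, it was 951 in L3/C and 472 in L/C. Fewer probe sets were tested there, so these counts cannot be set against 2329 and 1324 over all. Centring arrays on their medians moved the L3/C median of all probe sets to -0.12, and relative to it TIMP3 201148_s_at was at 0.44. The number of TIMP3 probe sets higher in L/C was 1 with age as a covariate, 2 with the ACTB ratio or the spike-in mean and 2 to 3 with 1 array left out, against 3. In L3/C it was 1 with sex as a covariate, in females only and without the 3 arrays of highest ACTB ratio (chosen after seeing the data), 3 with age, the ACTB ratio or the spike-in mean, and 1 to 3 with 1 array left out, against 2. The pairs of probe sets called correlated were 2 with no further normalization and 4 with centred arrays, against 1. The causes of these shifts were not tested.

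TIMP3 differences, which were not tested, changed sign as follows. In L/C 201147_s_at was -0.74 with age, -0.15 with the ACTB ratio and -0.030 with the spike-in mean, and 201149_s_at was -0.052 with age. In L3/C 201147_s_at was 0.21, 0.10 and 0.38 with these covariates, and 201149_s_at was -0.065 with sex, -0.18 in females only and -0.14 without the 3 arrays of highest ratio. With 1 array left out, 201147_s_at ranged over -0.30 to 0.77 in L/C, and 201147_s_at, 201149_s_at and 201150_s_at over -0.87 to 0.20, -0.47 to 0.59 and -0.80 to 0.15 in L3/C.

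Tested values below the threshold changed sign as follows. In L/C, RECK 1558116_x_at was -6.1e-06 with no further normalization, and in females only RECK 1558116_x_at was -0.33, TIMP2 224560_at -0.059 and MMP21 0.47. In L/C, PZP was 0.048 with age and TIMP2 224560_at was -0.11 with the ACTB ratio as a covariate. Without the 3 arrays of highest ratio, L/C was 0.13 for RECK 1558115_at, -0.25 for 1558116_x_at, 0.20 for 216156_at and -0.083 for TIMP2 224560_at, and L3/C was 0.21 for TIMP1 and 0.11 for SYN3. In L3/C, SYN3 was 0.060 with no further normalization and 0.011 with age, SERPINE2 -0.048 with centring, TIMP2 231579_s_at 0.078 with sex and 0.054 in females only, RECK 1558115_at -0.053 with age and -0.042 with the spike-in mean, and RECK 216153_x_at -0.072 with the spike-in mean. Female minus male was 0.015 for RECK 1558116_x_at, 0.058 for TIMP1 and -0.10 for TIMP2 224560_at with no further normalization, and -0.19 for TIMP2 224560_at with centring.

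With 1 array left out, tested values that changed sign in some fits ranged in L/C over -0.13 to 0.25 (RECK 1558116_x_at), -0.59 to 0.012 (RECK 216156_at), -0.090 to 0.098 (TIMP2 224560_at), -0.058 to 0.15 (TIMP2 231579_s_at), -0.39 to 0.52 (TIMP4), -0.065 to 0.86 (MMP24) and -0.0078 to 0.33 (ITGB1). In L3/C they ranged over -0.42 to 0.67 (RECK 1558115_at), -0.54 to 0.13 (RECK 1558116_x_at), -0.33 to 0.12 (TIMP1), -0.41 to 0.094 (TIMP2 224560_at), -0.11 to 0.061 (TIMP2 231579_s_at), -0.39 to 0.17 (SYN3), -0.53 to 0.086 (LRP1) and -0.35 to 0.097 (SPOCK2). Female minus male, TIMP3 included, ranged over -0.052 to 1.39, -0.17 to 0.85, -0.31 to 1.19 and -0.70 to 0.70 (TIMP3 201147_s_at, 201148_s_at, 201149_s_at and 201150_s_at), -0.13 to 0.089 (TIMP1), -1.99 to 1.15 and -0.099 to 0.17 (TIMP2 203167_at and 224560_at), and -0.34 to 0.40, -0.038 to 1.40 and -0.031 to 0.65 (RECK 1558116_x_at, 216153_x_at and 216156_at).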
